A study of Mus musculus with 8 samples.

Results

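The potassium channel genes were taken as every gene on the array whose symbol starts with *Kcn*, with 3 left out (*Kcnj13*, *Kcne2* and *Kcnj8*). Symbols came from the RefSeq accession of each probe. Of 98 such symbols in the RefSeq gene table, 97 had a probe, which left 94 members among the 20660 genes named on the array. Of the members, 32 had more than 1 probe, and the probe brightest in Cy5 over all arrays stood for each gene. Hippocampal RNA came from adult male Muta Mouse, a transgenic strain that carries a bacterial reporter gene for mutation assays, and every mouse of both groups carried it. The mice were 9 weeks old. The 4 BaP mice had received benzo[a]pyrene (BaP), a combustion product that activates the aryl hydrocarbon receptor (AHR), in olive oil by oral gavage at 70 mg/kg bw on each of 3 days. The 4 control mice had received the olive oil alone, and hippocampus was collected 24 hr after the last dose. There were 5 animals in a dose group, and 4 were arrayed. Each mouse's RNA was labeled with Cy5 and hybridized with a universal mouse reference RNA in Cy3, a single pool without a dye swap, so a value is the log2 ratio of a mouse to that reference.

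Potassium channels let potassium leave or enter cells and so set the resting potential, repolarize the membrane after an action potential and limit repetitive firing. A voltage-gated channel is built of 4 pore-forming alpha subunits, and silent modifier and auxiliary subunits alter its gating or its delivery to the membrane. Inward rectifiers hold the resting potential, mediate inhibition by G-protein-coupled receptors and, in astrocytes, clear potassium from around neurons. Tandem-pore channels carry background leak currents, and calcium- or sodium-activated channels open after activity. In hippocampal pyramidal cells, A-type channels of the *Kcnd* family with *Kcnip* partners restrain the spread of action potentials into dendrites, and *Kcnq* channels carry the M-current that acetylcholine suppresses.

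For 4 of the 8 arrays (control mice 3 and 4, BaP mice 3 and 4) the title of the sample puts it in one group and its source name in the other. These are the 4 arrays in row 2 of the slide, where the row was read from the position number in each scan's name and not from the sample labels. Titles were used throughout, and the members that stood out between the groups are also given within row 1 (control mice 1 and 2, BaP mice 1 and 2) and within row 2. Median Cy5 spot signals ran from 108 to 174 over backgrounds of 67 to 71, and 56.6% to 67.4% of spots were well above background in Cy5. Control mouse 1 had 1483 outlier spots, the other arrays 310 to 371. Precision is set by the 8 arrays.

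Of the 94 members, 78 had a Cy5 signal well above background on 4 or more of the 8 arrays and were tested between the groups, 71 of the 94 on all 8. Another 8 passed on 1 to 3 arrays and 8 passed on none, among them *Kcne1*, *Kcnh6*, *Kcnj1*, *Kcnk18*, *Kcnv2*, *Kcnk5* and *Kcnmb3*. By the prefix of the symbol, the tested members were 27 of 30 voltage-gated alpha subunits, 9 of 10 silent modifiers, 12 of 16 auxiliary subunits, 10 of 13 inward rectifiers, 11 of 14 tandem-pore channels, 7 of 8 calcium- or sodium-activated channels and 2 of 3 non-coding transcripts with a *Kcn* symbol. Every tested member was well above background in at least 1 mouse of each group.

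The first comparison set control hippocampus against the reference RNA. Of the 39 members well above background in both channels on all 8 arrays, 25 (64.1%) were at least 2-fold above the reference at an adjusted p of 0.05 in limma. Among all 12841 named genes measured in the same way, 23.6% were. In the other direction, 1 member (2.56%) was at least 2-fold below the reference, and 20.6% of all such genes were. The median log2 ratio of these 39 members was 1.95, and 13 lay within 2-fold or missed the test. Sample and dye cannot be told apart here. A ratio compares hippocampus with the reference for 1 gene and does not rank the genes by abundance.

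Among voltage-gated alpha subunits, 10 of the 16 members measured in both channels were at least 2-fold above the reference. *Kcnd3*, an A-type channel subunit, had the highest ratio of these 16, with a log2 ratio of 6.79 ± 0.38 (SD, n = 4 control mice). *Kcna1*, a delayed rectifier of axons, came next at 6.33 ± 0.28, and the ranges of the pair over the control mice overlapped. *Kcna4*, the A-type member of its family, was at 1.95 ± 0.10 and *Kcnc1*, a subunit of fast-spiking interneurons, at 3.55 ± 0.18. At the other end, *Kcna5* (-0.02 ± 0.11), known from heart and vessels, and *Kcnd1* (0.01 ± 0.08) were level with the reference. The *Kcna5* probe was dim, with a mean log2 Cy5 signal of 7.5 over all arrays, against 9.1 for *Kcnd1*. The offset added to both channels in background correction draws the ratio of a dim probe toward 0.

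*Kcnj10*, the inward rectifier with which astrocytes take up potassium, had the highest log2 ratio of all 39 members, 7.36 ± 0.18, and lay between 7.12 and 7.53 in the 4 control mice. *Kcnj4*, a strong inward rectifier of forebrain neurons, was at 3.55 ± 0.83, with 1 control mouse at 2.40 and the others at 3.49 to 4.27. Of auxiliary subunits, 4 of 6 were at least 2-fold above the reference, from *Kcnmb4*, the neuronal beta subunit of the large-conductance calcium-activated channel, at 5.02 ± 0.11 and *Kcnip3* at 4.01 ± 0.30 down to *Kcnab2* at 1.11 ± 0.39. *Kcnrg* had the lowest ratio of those 6, 0.74 ± 0.03. The only silent modifier with both channels measured, *Kcng1*, was at 3.70 ± 0.37. Tandem-pore channels were 5 of 10 above, led by *Kcnk1* at 4.11 ± 0.36, with *Kcnk3* at 2.23 ± 0.36. *Kcnk9* (0.20 ± 0.16) and *Kcnk6* (-0.41 ± 0.14) lay near the reference, and *Kcnk6* was the lowest of the 10 measured in both channels. The *Kcnk9* probe was dim too, with a mean log2 Cy5 signal of 7.1 over all arrays.

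The exception in direction was *Kcnn4*, the intermediate-conductance calcium-activated channel of red cells and lymphocytes, with a log2 ratio of -2.85 ± 0.12, equal to a 7.19-fold lower signal in hippocampus than in the reference. *Kcnt2*, a sodium-activated channel, was at 1.26 ± 0.17. *Kcnu1*, a pH- and voltage-gated sperm channel placed in the calcium- or sodium-activated class by its symbol only, was at 1.42 ± 0.47. *Kcnq1ot1*, a long non-coding RNA of an imprinted region, was at 1.62 ± 0.23.

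Another 22 members were well above background in Cy5 while the reference was not on any array, and 2 were seen in the reference alone. For members well above background in 1 channel, only a bound on the ratio can be given: the mean Cy5 signal of the control mice against, per array, the higher of the lowest well-measured reference signal and the probe's own. *Kcnd2*, the A-type subunit of pyramidal cell dendrites, was at least 89.1-fold higher in hippocampus than in the reference. *Kcnn2*, a small-conductance calcium-activated channel that shapes the afterhyperpolarization, was at least 50.3-fold higher. *Kcnc2*, a fast delayed rectifier of interneurons, was at least 31.7-fold higher, and the silent modifier *Kcnv1* at least 16.1-fold. Members of this kind could only lie above the reference, so their number is no result. Of the 21 with a bound above 1, 19 were well above background in Cy5 on all 4 control arrays. The M-current subunits *Kcnq5* and *Kcnq3* were at least 6.73-fold and at least 5.34-fold higher. In the other direction, *Kcnk5* was at least 2.51-fold lower in hippocampus and *Kcnmb3* at least 1.59-fold lower. These bounds are open to dye bias in the same way as the ratios.

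**Figure D1:**
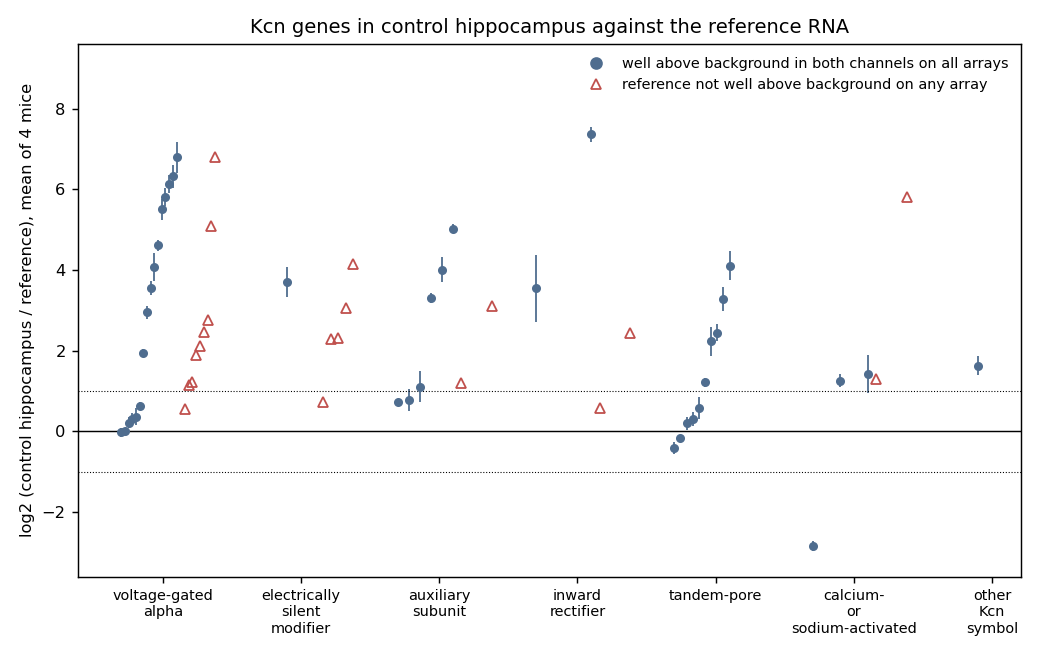
Log2 ratio of control hippocampus to the reference RNA (vertical axis) for members of each channel class (horizontal axis), sorted within a class. Filled circles with SD bars are the 39 members measured in both channels on all arrays, open triangles are tested members whose reference signal was not well above background on any array, so that their plotted ratio stands on an unmeasured reference, and dotted lines mark 2-fold. Of the circles, 25 were called at least 2-fold above the reference and *Kcnn4* is the 1 called below it.

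The second comparison asked which potassium channel genes differed between BaP and control mice. After Benjamini-Hochberg adjustment over all 32599 tested probes in limma, 0 of the 78 tested members passed an adjusted p of 0.05 with a 1.5-fold change, where 0.0092% of all probes did (3 probes). The gene-wise F test gave 0 as well. At an unadjusted p of 0.05, limma picked out 12 of 78 members (15.4%), where 8.76% of all probes were below that value, and 7 of the 12 were higher and 5 lower. Groups without overlap were seen in 3 members, higher in 2 (2.56%, against 2.52% of all probes) and lower in 1 (1.28%, against 2.54%). Of the 78, 38 had a positive and 40 a negative log2 fold change, with a median of -0.01 and a range from -0.64 to 0.49. The median over all tested probes was -0.004. The median size of the change, sign aside, was 0.142 on the log2 scale in members and 0.0938 over all probes, and the median standard errors were 0.129 and 0.106. Only *Kcnj16* reached 1.5-fold, and 53 of 78 were within 0.2 of 0 on the log2 scale. The adjusted p of the 12 members was 0.490 to 0.544, so none of these members held up after adjustment, and in these bulk samples fewer cells of a type and less RNA per cell cannot be told apart.

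**Figure D2:**
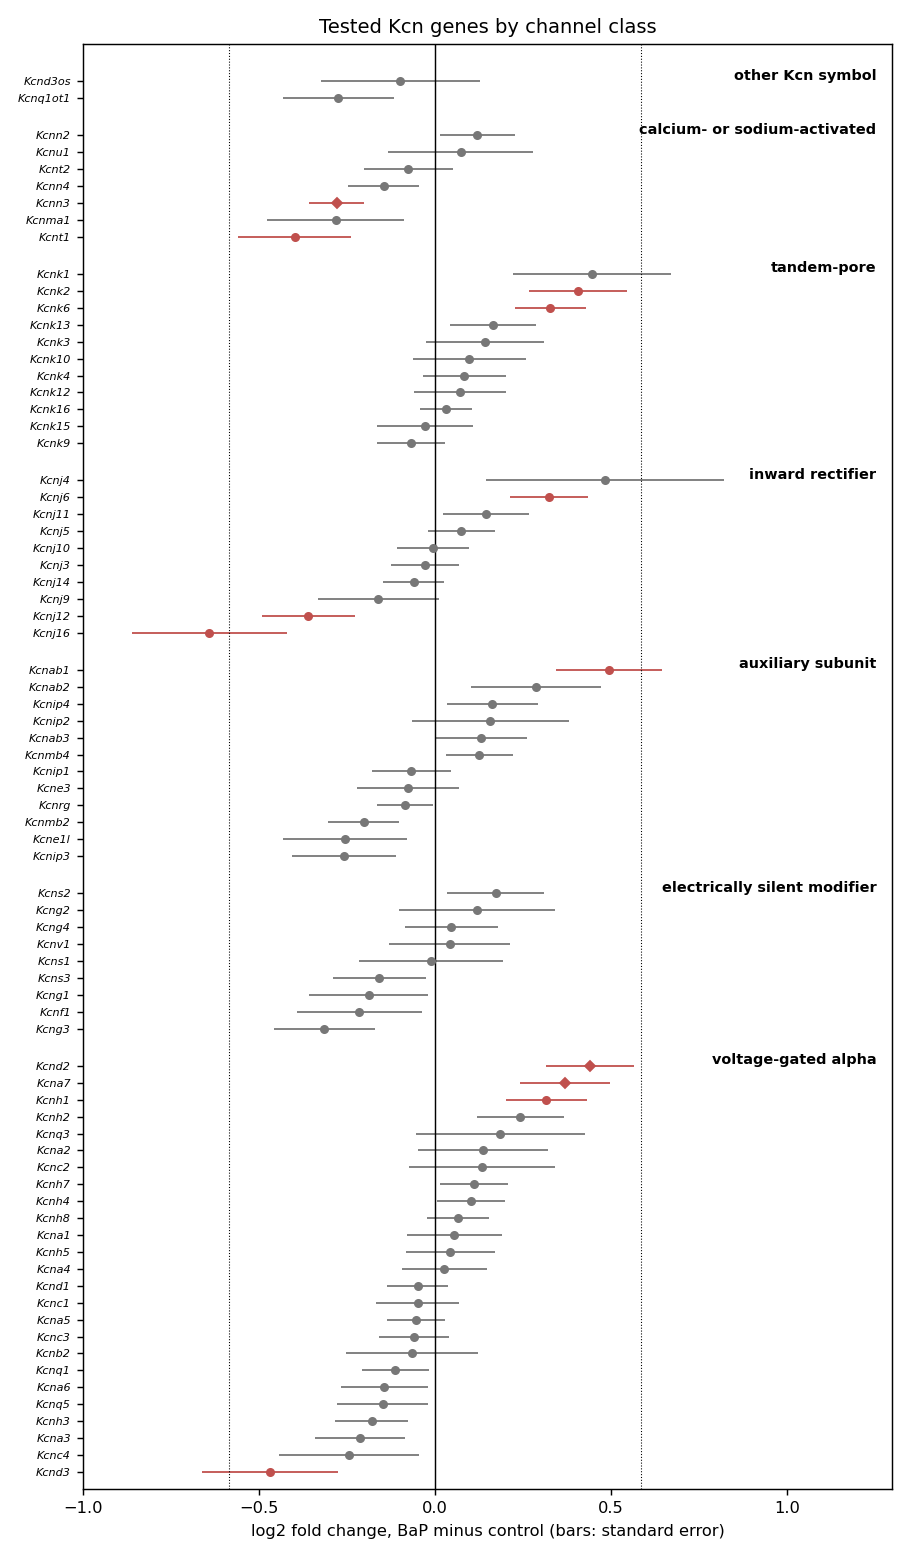
Log2 fold change, BaP minus control (horizontal axis, bars are limma standard errors, 4 mice per group), of the tested members by channel class, with 2 of the 78 not drawn. Red marks the 12 members with an unadjusted p of at most 0.05, diamonds the 3 whose groups do not overlap, and dotted lines 1.5-fold; *Kcnj16* is the 1 member beyond a dotted line.

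In the A-type family, *Kcnd2* and *Kcnd3* lay on opposite sides of 0. The log2 ratio of *Kcnd2* was 6.63, 6.85, 6.85 and 6.86 in control mice 1 to 4 and 7.36, 7.42, 7.29 and 6.87 in BaP mice 1 to 4. Every BaP mouse was above every control mouse, but BaP mouse 4 only just, and control mouse 1 stood below the other controls. Its log2 fold change was 0.44 (standard error, SE, 0.13, with an adjusted p of 0.490 in limma), and the exact permutation test gave p = 0.0286 (2-sided), the smallest value that 4 mice against 4 allow. Within slide row 1 the change was 0.66, and within row 2 it was 0.23. The reference signal of this probe was not well above background on any array. In Cy5 alone, without the reference, the change was 0.35 and the groups overlapped.

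*Kcnd3* had log2 ratios of 6.31, 6.90, 7.22 and 6.72 in control mice 1 to 4, and of 6.56, 6.49, 5.94 and 6.29 in BaP mice 1 to 4. Control mouse 1 lay among the BaP mice. BaP minus control gave a log2 fold change of -0.47 (SE 0.19, adjusted p = 0.544 in limma), with an exact permutation p of 0.114. It was -0.08 within row 1 and -0.86 within row 2, the row with conflicting labels, and -0.19 in Cy5 alone. A second tested probe of *Kcnd3* gave -0.23. The third member of the family, *Kcnd1*, was between -0.21 and 0.12 in all 8 mice. Among the partners of these channels, *Kcnip4* was at 5.51 to 5.85 in control and 5.54 to 6.12 in BaP mice, *Kcnip3* at 3.59 to 4.31 and 3.57 to 3.95, *Kcnip2* at 2.60 to 3.56 and 2.85 to 3.77, all with overlapping groups. *Kcnip1* had a change of -0.07.

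The promoter letters of this pair are shown because BaP activates AHR, whose core binding motif holds the letters GCGTG. Each sequence is the 250 bases before the transcription start in RefSeq (GRCm38.p6), 5′ to 3′ on the gene's own strand, with GCGTG, or CACGC where the motif lies on the other strand, in capitals. The *Kcnd2* window is chr6:21215096-21215345 (plus strand) and the *Kcnd3* window chr3:105451640-105451889 (plus strand).
Kcnd2: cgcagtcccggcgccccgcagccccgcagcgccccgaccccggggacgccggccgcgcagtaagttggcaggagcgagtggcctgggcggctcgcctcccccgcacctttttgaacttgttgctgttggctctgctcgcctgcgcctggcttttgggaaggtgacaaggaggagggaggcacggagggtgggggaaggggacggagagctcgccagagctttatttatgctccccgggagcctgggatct
Kcnd3: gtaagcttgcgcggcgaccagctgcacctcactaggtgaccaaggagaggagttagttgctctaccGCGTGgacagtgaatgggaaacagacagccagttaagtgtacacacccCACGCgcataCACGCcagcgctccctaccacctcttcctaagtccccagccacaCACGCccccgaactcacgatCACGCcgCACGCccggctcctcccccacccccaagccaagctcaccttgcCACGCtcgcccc
The *Kcnd2* window held 0 copies of GCGTG on either strand, and the *Kcnd3* window 7. Windows of *Kcna7*, *Kcnab1* and *Kcnh1*, with positive changes, and of *Kcnn3* and *Kcnj12*, with negative changes, held 0 as well. Those of *Kcnj16*, *Kcnj6* and *Kcnk2* held 1 or 2 copies in some windows and 0 in others. By gene, 32.4% of the 68 members held the letters in at least 1 window, against 30.9% of all genes. Over the members, 92 promoter windows of 68 genes were found in the table, and 26.1% of these windows held the letters at least once, against 28.2% of 32851 windows of all genes. The longer form TNGCGTG was in 5.43% of member windows and 4.1% of all windows. A match of letters is a description of the sequence and not a site.

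The other voltage-gated members with an unadjusted p below 0.05 were *Kcna7* and *Kcnh1*. For *Kcna7*, a shaker-type subunit known mainly from muscle, the log2 ratio was 0.67, 0.49, 0.60 and 0.73 in the control mice and 0.96, 1.37, 0.89 and 0.76 in the BaP mice. No BaP mouse was below a control mouse, although control mouse 4 and BaP mouse 4 were close. This made a log2 fold change of 0.37 (SE 0.13, adjusted p = 0.512 in limma, exact permutation p = 0.0286). A second probe gave 0.03, and within rows 1 and 2 the change was 0.59 and 0.15. Without BaP mouse 2, the highest, it was 0.24. In Cy5 alone the change was 0.28, and the groups overlapped there and in the deposited log2 ratios. *Kcnh1*, a slow delayed rectifier of the ether-a-go-go family, had log2 ratios of 1.12, 1.45, 1.29 and 1.05 in control and 1.64, 1.45, 1.72 and 1.37 in BaP mice. The groups overlapped, with a log2 fold change of 0.32 (SE 0.11, adjusted p = 0.517 in limma, exact permutation p = 0.0857). Rows 1 and 2 gave 0.25 and 0.38 for *Kcnh1*, whose reference signal was not well above background on any array.

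None of the remaining voltage-gated alpha subunits had an unadjusted p of 0.05 or less. Over the class, 13 of 27 tested members had a positive and 14 a negative change, with a median of -0.05. The M-current subunits *Kcnq3* and *Kcnq5* had log2 fold changes of 0.19 and -0.15. For *Kcnq3* the rows ran opposite ways, with 0.77 within row 1 and -0.40 within row 2, and with the source names as groups it became 0.59. *Kcna1*, *Kcna2* and *Kcna4*, shaker-type subunits of axons and terminals, were at 0.05, 0.14 and 0.03, and *Kcnc1* and *Kcnc2*, the fast-spiking subunits, at -0.05 and 0.13. *Kcnc2* was 4.60 in control mouse 1 and 5.20 to 5.30 in the other controls, against 4.81 to 5.72 in BaP mice. The ether-a-go-go member *Kcnh7* was at 0.11. None of the 9 silent modifiers had an unadjusted p of 0.05 or less, and their changes ran from -0.32 for *Kcng3* to 0.17 for *Kcns2*.

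Among auxiliary subunits, *Kcnab1*, a beta subunit that speeds the inactivation of shaker-type channels, had the highest log2 fold change of all tested members. Its log2 ratio was 3.45, 3.27, 3.34 and 3.17 in control mice 1 to 4 and 3.96, 4.10, 3.82 and 3.33 in BaP mice 1 to 4. BaP mice 1 to 3 were above all controls, and BaP mouse 4 lay among them. The log2 fold change was 0.49 (SE 0.15, adjusted p = 0.498 in limma, exact permutation p = 0.0857), with 0.67 within row 1 and 0.32 within row 2. Its relative *Kcnab2* was at 0.54 to 1.41 in control and 1.18 to 1.68 in BaP mice, and control mouse 1 was the lowest. The other auxiliary subunits were divided, with 6 of 12 higher and 6 lower, *Kcnab1* and *Kcnab2* included.

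Of the inward rectifiers, *Kcnj16* had the most negative log2 fold change, with overlapping groups. *Kcnj16* forms channels with *Kcnj10* in astrocytes. Its log2 ratio was 4.12, 4.43, 4.65 and 4.66 in the control mice and 4.36, 3.69, 3.23 and 4.02 in the BaP mice. BaP mice 2 to 4 were below every control, and BaP mouse 1 lay among the controls. The log2 fold change was -0.64 (SE 0.22, adjusted p = 0.509 in limma, exact permutation p = 0.0571), with -0.25 within row 1 and -1.03 within row 2. Its partner *Kcnj10* was 7.12 to 7.53 in control and 7.26 to 7.47 in BaP mice, a change of -0.01.

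The G-protein-gated rectifiers carry slow inhibition in pyramidal cells. *Kcnj6* was at 1.99, 2.20, 2.21 and 2.23 in control and 2.62, 2.62, 2.49 and 2.20 in BaP mice, so BaP mice 1 to 3 were above all controls and BaP mouse 4 was among them. Its groups did not overlap with no background correction, under median centring, with the deposited log2 ratios or in Cy5 alone, where the change was 0.38. The log2 fold change was 0.32 (SE 0.11, adjusted p = 0.509 in limma, exact permutation p = 0.114), but 0.53 within row 1 and 0.12 within row 2. The reference signal of *Kcnj6* was well above background on only 2 of 8 arrays. *Kcnj3* and *Kcnj9*, which combine with *Kcnj6*, had changes of -0.03 and -0.16 with overlapping groups, but a second *Kcnj3* probe gave 0.21. *Kcnj9* was at -0.37 in Cy5 alone, with an unadjusted p of 0.0242 in limma, and at 0.05 under median centring. *Kcnj12*, a strong rectifier, was at 2.37, 2.33, 2.64 and 2.41 in control and 1.99, 1.92, 1.92 and 2.47 in BaP mice. BaP mice 1 to 3 were below all controls, BaP mouse 4 was above 3 of them, and the log2 fold change was -0.36 (SE 0.13, adjusted p = 0.523 in limma, exact permutation p = 0.114). Rows 1 and 2 gave -0.39 and -0.33 for *Kcnj12*, and its reference signal too was not well above background on any array. In Cy5 alone its change was -0.29, with an unadjusted p of 0.0743 in limma. *Kcnj4* had a change of 0.48 with a standard error of 0.34, with control mouse 4 alone at 2.40. Without that mouse the change was 0.10, and without control mouse 3 it was 0.72. *Kcnj11*, the pore of the ATP-sensitive channel, was at 1.58 to 2.07 in control and 1.82 to 2.08 in BaP mice.

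Tandem-pore channels had 9 of 11 tested members with a positive change and a median of 0.10. *Kcnk2*, a leak channel opened by stretch and arachidonic acid, had log2 ratios of 0.51, 0.49, 0.97 and 0.35 in control and 0.95, 0.93, 1.22 and 0.84 in BaP mice. Control mouse 3 lay among the BaP mice, and the log2 fold change was 0.41 (SE 0.14, adjusted p = 0.509 in limma, exact permutation p = 0.114). *Kcnk6* was at -0.21, -0.52, -0.42 and -0.49 in control and -0.12, -0.07, 0.09 and -0.23 in BaP mice. Here control mouse 1 and BaP mouse 4 were the only overlap, and the log2 fold change was 0.33 (SE 0.10, adjusted p = 0.498 in limma, exact permutation p = 0.0571). Within rows 1 and 2 the change was 0.44 and 0.37 for *Kcnk2*, and 0.27 and 0.38 for *Kcnk6*. *Kcnk1* was at 4.55, 3.89, 4.24 and 3.76 in control and 4.26, 4.89, 4.95 and 4.12 in BaP mice, a change of 0.45 with a standard error of 0.22. Its unadjusted p in limma was 0.0747, and 0.0217 to 0.0426 with no background correction, under median centring, with the deposited log2 ratios and in Cy5 alone. The unadjusted p was 0.160 in the gene-wise F test, and 0.0246 to 0.199 in limma with 1 mouse left out. With source names as groups the change of *Kcnk1* was -0.09. *Kcnk3* and *Kcnk9*, acid-sensitive leak channels, were at 0.14 and -0.07.

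In the calcium- and sodium-activated class, with *Kcnu1* counted, 5 of 7 tested members had a negative change, with a median of -0.15. *Kcnn3*, a small-conductance calcium-activated channel, had log2 ratios of 1.31, 1.27, 1.31 and 1.27 in control mice 1 to 4 and 1.02, 0.97, 1.15 and 0.90 in BaP mice 1 to 4. All BaP mice were below all controls, and the SD was 0.02 among controls and 0.11 among BaP mice. The log2 fold change was -0.28 (SE 0.08, adjusted p = 0.490 in limma, exact permutation p = 0.0286), a 1.21-fold lower ratio. It was -0.29 within row 1 and -0.27 within row 2, and -0.24 in Cy5 alone. The second probe of *Kcnn3* gave -0.12, and the reference signal was not well above background on any array.

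Other channels of this class overlapped between the groups. *Kcnt1*, a sodium-activated channel, was at 2.81, 3.27, 3.04 and 2.79 in control and 2.52, 2.17, 2.83 and 2.79 in BaP mice, with a log2 fold change of -0.40 (SE 0.16, adjusted p = 0.542 in limma, exact permutation p = 0.143), of which row 1 gave -0.69 and row 2 -0.10. In Cy5 alone it was -0.32, with an unadjusted p of 0.110 in limma, and without BaP mouse 2 it was -0.26, with one of 0.0922. The large-conductance channel gene *Kcnma1* was at 6.60 to 7.34 in control and 6.24 to 7.06 in BaP mice. Its probes disagreed, with -0.28 for the brightest and 0.26 and 0.07 for the other tested probes. *Kcnn2* was at 5.61 to 5.91 and 5.76 to 6.16, without overlap in Cy5 alone (0.25), and its neuronal relative *Kcnn1* was well above background on 1 of 8 arrays. Over all members with more than 1 tested probe, 10 of 20 had the same sign in every probe.

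**Figure D3:**
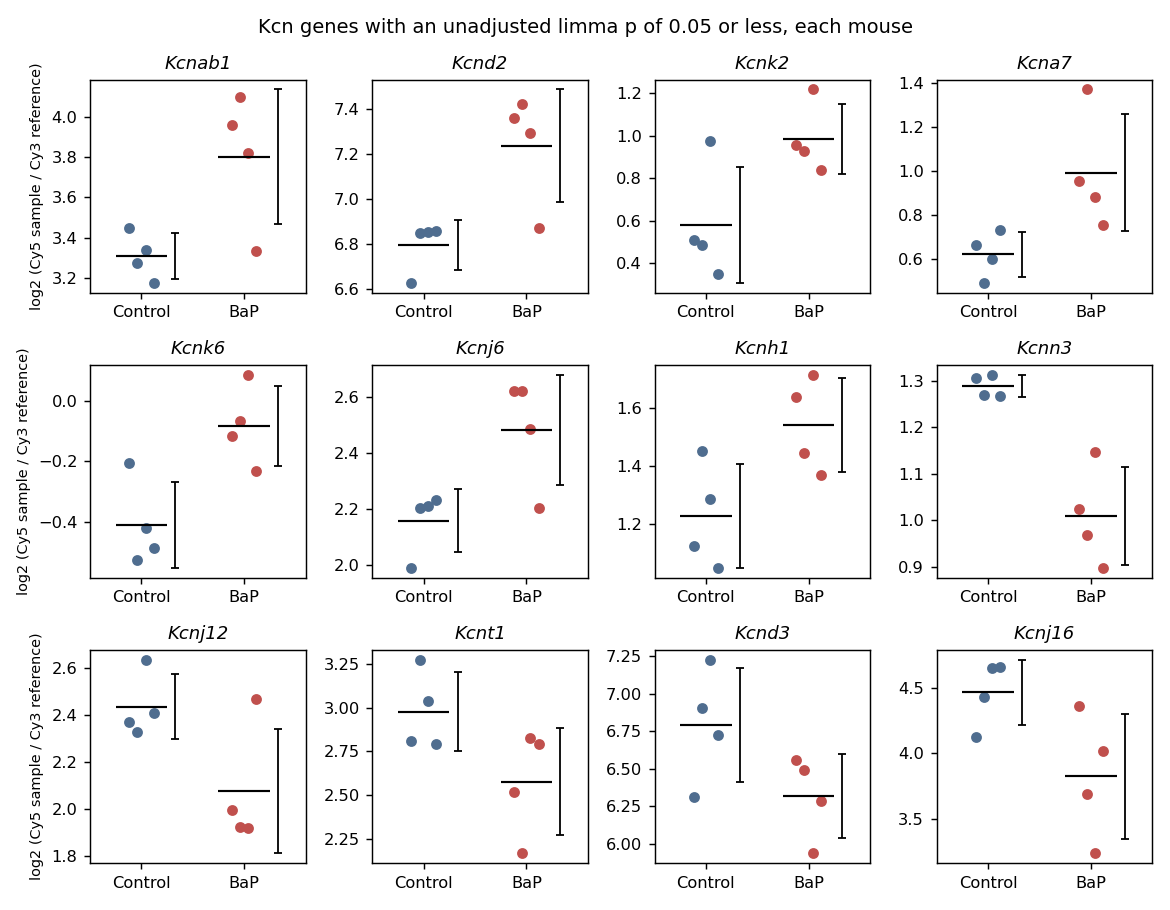
Log2 ratio to the reference (vertical axes, each on its own scale) in the 4 control (blue) and 4 BaP mice (red) for the 12 members with an unadjusted limma p of at most 0.05. Points are mice 1 to 4 from left to right, horizontal lines are group means and bars are SD; only *Kcnd2*, *Kcna7* and *Kcnn3* have groups that do not overlap.

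The 12 members were chosen on the mean of both slide rows, so their signs within the rows and under other groupings of the same arrays are no independent check. With the groups taken from the source names instead, 3 of 78 members (3.85%) had an unadjusted p of 0.05 or less, against 4.39% of all probes, and 1 (1.28%), *Kcnq3*, had groups without overlap, against 2.73%. Those 3 were *Kcnq3*, *Kcnk3* and *Kcnc2*, none of them among the 12, and *Kcnn3*, *Kcnk2* and *Kcnj12* came to -0.01, 0.04 and -0.03. Within row 1, where the labels agree, 10 members (12.8%) were below that p, with 7 higher and 3 lower, against 6.95% of all probes. Within row 2, 7 members (8.97%) were, with 2 higher and 5 lower, against 6.14%. Without control mouse 1, 11 members (14.1%) had groups without overlap, against 9.30% of all probes, and with fewer mice groups overlap less often by construction. Median centring of the arrays in place of loess moved the median of all probes by 0.17 on the log2 scale, and then 15 members were higher and 2 lower at that p (21.8% of members, against 18.6% of all probes), while the median of the members was 0.06 below that of all probes.

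Marker lists were read beside these values. The hippocampal list (*Prox1*, *Zbtb20*, *Neurod6* and others) was well above background, with a positive mean change but overlapping groups for 7 of 7 markers, and its mean log2 ratio was 3.36 to 3.60 in control and 3.49 to 3.92 in BaP mice. BaP mice 1 to 3 were above every control for this list, and BaP mouse 4 was among the controls, as for *Kcnab1* and *Kcnj6*. The same mice split the other way for *Kcnj12* and for *Dpp10*, a partner of A-type channels. For these genes BaP mice 1 to 3 were below every control and BaP mouse 4 was among the controls. The lists for neurons (5.57 to 5.82 and 5.57 to 5.69) and astrocytes (4.74 to 5.02 and 4.62 to 4.86) overlapped widely. In the endothelium and pericyte list (1.80 to 1.97 and 1.81 to 1.94), 3 of 7 markers were higher and 4 lower on average, with a median log2 fold change of -0.04. Of these, 1 marker, *Cldn5*, a tight junction gene of brain vessels, had groups without overlap, with a log2 fold change of -0.57 (SE 0.08, adjusted p = 0.138 in limma), -0.51 within row 1 and -0.62 within row 2. The choroid plexus list, which holds *Kcnj13* and *Kcne2*, was 3.33, 2.22, 3.68 and 1.86 in control mice 1 to 4 and 1.31, 4.35, 4.80 and 3.76 in BaP mice 1 to 4, with 13 of 13 markers higher on average. *Kcnk1* was highest, and *Kcnj16* lowest, in BaP mice 2 and 3, the mice with the highest choroid plexus levels. Among controls, mouse 3 had the highest choroid plexus level and mouse 4 the lowest. In these mice *Kcnj16* was nearly the same, at 4.65 and 4.66, and *Kcnk1* was at 4.24 and 3.76. The erythroid list was 4.62 to 4.84 in control and 3.54 to 3.90 in BaP mice, with 5 of 5 markers lower without overlap. Of these, *Hbb-bs* (-1.90, SE 0.14, adjusted p = 0.00234 in limma) and *Alas2* (-1.05, SE 0.12, adjusted p = 0.0445 in limma) were called. By title, *Hbb-bs* was at -2.02 within row 1 and -1.79 within row 2, so both rows ran the same way. The part of these lists in the members' differences was not tested.

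**Figure D4:**
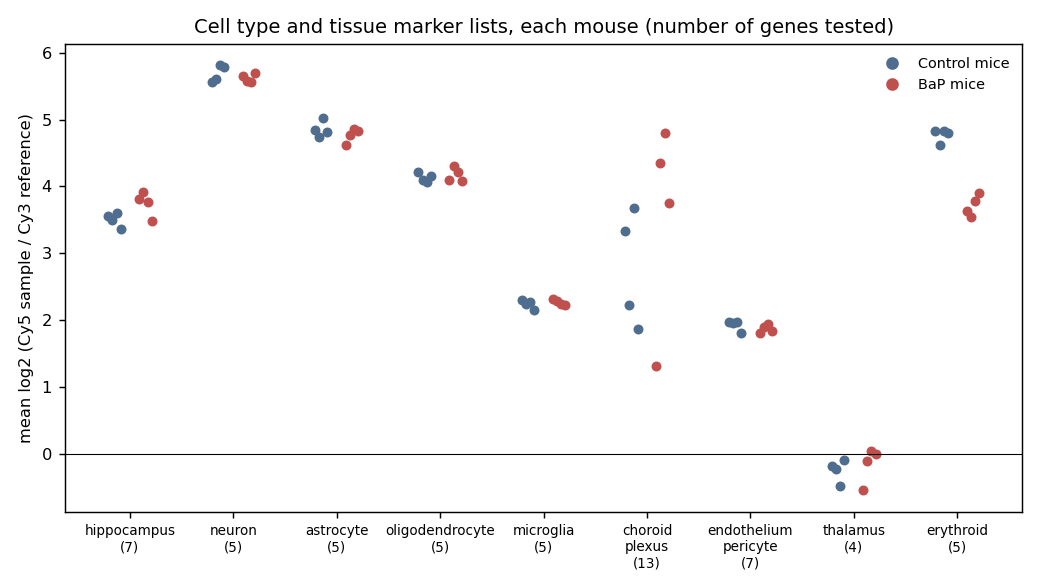
Mean log2 ratio to the reference (vertical axis) of each marker list (horizontal axis, number of genes tested in brackets) in the control (blue) and BaP mice (red), points being mice 1 to 4 from left to right. The erythroid list is lower in all BaP mice, the choroid plexus list runs from 1.31 to 4.80 with overlapping groups, and the neuron and astrocyte lists overlap.

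The genes that work with potassium channels were read as a fixed list of 24 channel partners, sodium pump subunits and cation-chloride cotransporters, of which 23 had a probe and 21 were tested. None was called in limma, 3 (14.3%) had an unadjusted p of 0.05 or less, against 8.76% of all probes, and 0 had groups without overlap, against 5.06%. Of the 21, 12 had a positive and 9 a negative change, with a median of 0.01. *Dpp10*, a partner of A-type channels, was at 4.58, 4.70, 4.79 and 4.43 in control and 4.13, 3.58, 3.83 and 4.49 in BaP mice. Only BaP mouse 4 lay among the controls, and the log2 fold change was -0.62 (SE 0.18, adjusted p = 0.490 in limma, exact permutation p = 0.0571). Its second tested probe gave -0.10, and its reference signal was not well above background on any array. The related *Dpp6* had a change of -0.08. *Slc12a2*, which loads cells with chloride and potassium and is abundant in choroid plexus, was at 0.92, 0.58, 0.56 and 0.32 in control and 0.50, 1.53, 1.84 and 1.03 in BaP mice, with a change of 0.63 (SE 0.25, adjusted p = 0.542 in limma). *Abcc9*, the receptor subunit of vascular ATP-sensitive channels, had a change of 0.34 (SE 0.15, adjusted p = 0.563 in limma), and its reference signal was not well above background on any array. *Slc12a5*, the neuronal chloride extruder, had a change of 0.01 (a second probe gave -0.30), and the sodium pump subunit *Atp1b1* had a change of 0.20.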

How the data were processed

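The 4 control and 4 BaP mice were grouped by title. The authors deposited scanner intensities of each spot (Agilent Feature Extraction 11.0.1.1 per the file headers), with scanner marks for outlier spots and for signal well above background, a log10 ratio of Cy5 over Cy3 made by the same software, and a table of log2 ratios described as LOWESS-normalized. Here, spot medians were background-corrected (normexp, offset 50), control spots left out, outlier spots set to missing, and log2 Cy5/Cy3 loess-normalized within arrays in limma 3.58.1 (R 4.3.3). Of 55681 probes, 32599 (15087 named genes) passed the filter (a Cy5 signal well above background on 4 or more arrays) and were fitted with lmFit and eBayes, adjusted over all of them by Benjamini-Hochberg. Calls needed an adjusted p of 0.05 and 1.5-fold, or 2-fold against the reference. Exact permutation tests were 2-sided over 70 assignments. Of 28685 probes with an accession, 27235 were named (GRCm38.p6, names only). The fits were tested on simulated data. Nothing states that the mice were processed separately, so p-values measure the spread between these samples.

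The members and lists were chosen with earlier results of these data known. The genes named were members without overlap, the 10 lowest p-values, the extremes of each class against the reference, the brightest members measured in 1 channel, and a set fixed by role; others were named after their values were seen. Alternatives covered background correction, normalization, the deposited log2 ratios, filters, Cy5 alone, outlier spots, blocks, tests, labels, probes and each mouse left out. The paper's other measurements were not analysed here. Some genes of these lists are counted but not reported by name here.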

Additional observations from a re-analysis of the deposited data

Results flagged for a closer look

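In each group of 4 mice, the mouse at either end was compared with the nearest of the others. Of the 88 groups examined, 7 had a mouse set apart by more than Dixon's critical value, where about 1 in 20 groups, or 4.4, would be by chance. Control mouse 1, the array with the most outlier spots, was the lowest control for *Kcnd2* (log2 ratio 6.63, the others 6.85 to 6.86), *Kcnc2* (4.60, the others 5.20 to 5.30) and *Kcnj6* (1.99, the others 2.20 to 2.23). BaP mouse 4 stood above the other BaP mice for *Kcnj12* (2.47, the others 1.92 to 1.99). BaP mouse 2 was the lowest for *Kcnj4* (3.71, the others 4.11 to 4.16). BaP mouse 1 was the highest for *Kcnk9* (0.241, the others 0.0798 to 0.103) and the lowest for *Kcnrg* (0.492, the others 0.686 to 0.718).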

How the results depend on the processing

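The count of members past the adjusted threshold was 0 under every alternative run. The count with an unadjusted p of 0.05 or less, 12 as reported, was 7 within row 2, 3 with source names as groups, 8 by the F test (7 higher and 1 lower, 10.3% against 8.23% of all probes) and 9 to 17 with a mouse left out (17, 21.8% against 9.41% of all probes, with 8 higher and 9 lower, without control mouse 1, and 9, 11.5% against 9.18%, with 7 higher and 2 lower, without control mouse 3). It was 17 under median centring, with 15 higher and 2 lower against 7 and 5, and 11 with the deposited log2 ratios (14.1%, against 9.28% of all probes), with 8 higher and 3 lower. *Kcnd3*, *Kcnj12* and *Kcnt1* were no longer below that p with no background correction, under median centring, with the deposited log2 ratios or in Cy5 alone, nor was *Kcnn3* under median centring or *Kcna7* in Cy5 alone. *Kcnk1* was below it in those 4 settings, *Kcnn2* under median centring and in Cy5 alone, *Kcnj9* in Cy5 alone, *Kcnn4* with the deposited log2 ratios, and *Kcna4*, *Kcnab2*, *Kcnip4* and *Kcnmb4* under median centring. Groups without overlap, 3 as reported, numbered 6 with no background correction (7.69% of members, against 5.45% of all probes), 6 under median centring (against 9.53%), 5 with the deposited log2 ratios (6.41%, against 5.27%), 6 in Cy5 alone (against 4.75%) and 1 with source names (1.28%, against 2.73%). With a mouse left out they numbered 3 to 11, and the share of all probes rose as well: 11 (14.1%, against 9.30%) without control mouse 1, 8 (10.3%, against 10.8%) without BaP mouse 4, 7 (8.97%, against 8.06%) without control mouse 2, and 5 (6.41%) without control mouse 4 (against 7.81%) or BaP mouse 1 (against 10.02%). The median log2 fold change of the members became 0.11 under median centring and -0.11 within row 2. With the groups taken from source names, *Kcnd3* (0.39), *Kcnj16* (0.39), *Kcnh1* (-0.061) and *Kcnk6* (-0.053) reversed, and the other 8 of the 12 kept their sign but not that p. Members at least 2-fold above the reference numbered 56 with no filter and 56 with the filter on all 8 arrays, settings that also take members whose reference was not measured, and those below it 2 with no filter.

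The replicate numbers did not pair the mice. Deviations of same-numbered mice correlated across genes at -0.354, 0.0313, -0.00716 and -0.00662. With the replicate number as a block, 11 members (14.1%, against 7.31% of all probes) had an unadjusted p of 0.05 or less (*Kcnd3* and *Kcnt1* not among them, *Kcnq1ot1* added), 0 were called and 3 had groups without overlap. With slide row as a block, 13 (16.7%, against 8.23% of all probes) were at or below that p, the 12 and *Kcnq1ot1*.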
